A study of Mus musculus with 8 samples.

Results

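The intercalated disc is the seam at which one heart muscle cell meets the next. Gap junction channels built of connexins pass current across it. N-cadherin and the catenins of the adherens junction tie the contractile apparatus of neighbouring cells together, and desmosomes tie their intermediate filaments together. In the heart both kinds of anchoring junction share parts, desmosomal mutations are a known cause of arrhythmogenic cardiomyopathy, and loss or displacement of connexin 43 is a familiar feature of overloaded ventricle.

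Of 18194 genes that had at least 1 probe set annotated to a single symbol, 10 genes of this structure were followed. They are the connexins Gja1, Gja5 and Gjc1, the adherens junction genes Cdh2 and Ctnna3, and the desmosomal genes Dsg2, Dsc2, Dsp, Pkp2 and Jup. Where a gene had several such probe sets, the brightest one, by its mean over all 8 arrays, stood for it. It entered the tests if its log2 value exceeded 5 in at least 4 of the 8, with no regard to group. This left 9 of the 10 members, each above that level in all 8 arrays, and 9605 genes in all. Gja5 did not pass.

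The arrays came from heart ventricles of male FVB mice, an inbred strain, aged 8 to 12 weeks, 1 week after ascending aortic banding, in which a constriction of the aorta raises the pressure load on the left ventricle. The TG group was 4 mice carrying CHF1/Hey2, which represses transcription and belongs to the hairy-related proteins, under the mlc2v promoter, which restricts the transgene to heart muscle. The WT group was 4 wild-type mice with the same operation. All hearts were banded, so the values describe transgene against no transgene under load and say nothing of banding itself. The labels do not say how many founder lines gave the TG mice.

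Heart ventricle RNA of 1 mouse went onto 1 Affymetrix Mouse Genome 430 2.0 array, and the authors deposited log2 values made with GCRMA. Heart muscle markers were near the top of the scale in every array, with a mean log2 level of the 8 cardiomyocyte markers between 14.81 and 15.28 in TG arrays and between 15.16 and 15.22 in WT arrays. TG replicate 2 stood apart from every other array: 37.2% of the genes tested lay over 2-fold from their median in the other 7 arrays, against 9.26% in TG replicate 3 and at most 1.53% in any of the remaining arrays. Its correlation with the other arrays across genes, which are not independent replicates, was at most 0.84. Hey2 itself gave 5.87, 5.70, 6.26 and 6.02 in TG replicates 1 to 4, against 5.89, 5.96, 5.68 and 6.76 in WT replicates 1 to 4, so its only probe set was not higher in the TG arrays (exact two-sided permutation p = 0.771). Nothing here shows whether it detects the construct, and the arrays are called TG and WT as labelled. With 1 array per mouse, the p-values rest on the spread between arrays, in which mouse and handling cannot be told apart. In limma the variance of each gene is also drawn toward that of all genes.

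Because the transgene encodes a DNA-binding repressor, the promoters of a connexin and of a desmosomal gene are shown, as RefSeq sequence of build GRCm38.p6 ending at the base before the annotated start. Hairy-related repressors are known to bind E-box type sequences, and CACGTG and CACGCG, a pair of such motifs, were searched on both strands in the 250 bases before the start. Capitals mark a match.

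Gja1 (chr10:56377050-56377299, plus strand): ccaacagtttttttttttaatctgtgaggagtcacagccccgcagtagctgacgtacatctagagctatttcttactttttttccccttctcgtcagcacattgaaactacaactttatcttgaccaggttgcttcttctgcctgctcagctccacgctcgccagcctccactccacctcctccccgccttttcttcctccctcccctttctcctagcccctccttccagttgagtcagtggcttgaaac

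Dsp (chr13:38151044-38151293, plus strand): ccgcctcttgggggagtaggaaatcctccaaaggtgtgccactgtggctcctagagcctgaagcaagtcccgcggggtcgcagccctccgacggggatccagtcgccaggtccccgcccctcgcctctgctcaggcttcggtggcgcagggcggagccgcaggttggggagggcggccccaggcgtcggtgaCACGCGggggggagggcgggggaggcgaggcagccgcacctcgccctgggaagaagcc

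The Gja1 promoter held neither motif, and the Dsp promoter held 1 CACGCG, whose first base lies 58 bases before the start. CACGCG was present in 7.62% of 32851 promoters of the same length and CACGTG in 6.02%. Of the 10 members, 5 had an entry in the promoter table, and Gja5, Jup and each of the annotated starts of Ctnna3 held neither motif. These matches describe the letters of the window only. Neither Gja1 nor Dsp differed between the groups beyond the spread of the arrays, as the values below show.

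None of the 9 intercalated disc genes tested differed between TG and WT ventricles beyond the spread between arrays. With limma and Benjamini-Hochberg adjustment over all 9605 genes, 0 of the 9 members passed at 0.05, where 0% of all genes did (adjusted p of the members between 0.813 and 0.957). Also 0 of 9 had an unadjusted limma p under 0.05, against 1.6% of all genes. The TG and WT values overlapped for each of the 9 members, whereas they did not overlap for 2.48% of all genes. The TG mean lay below the WT mean in 7 of 9 members, where this held for 43% of all genes, with a median difference of -0.13 against 0.06 over all genes. Without TG replicate 2 the median of the members was -0.02, and without TG replicates 2 and 3 together it was 0.03.

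**Figure D1:**
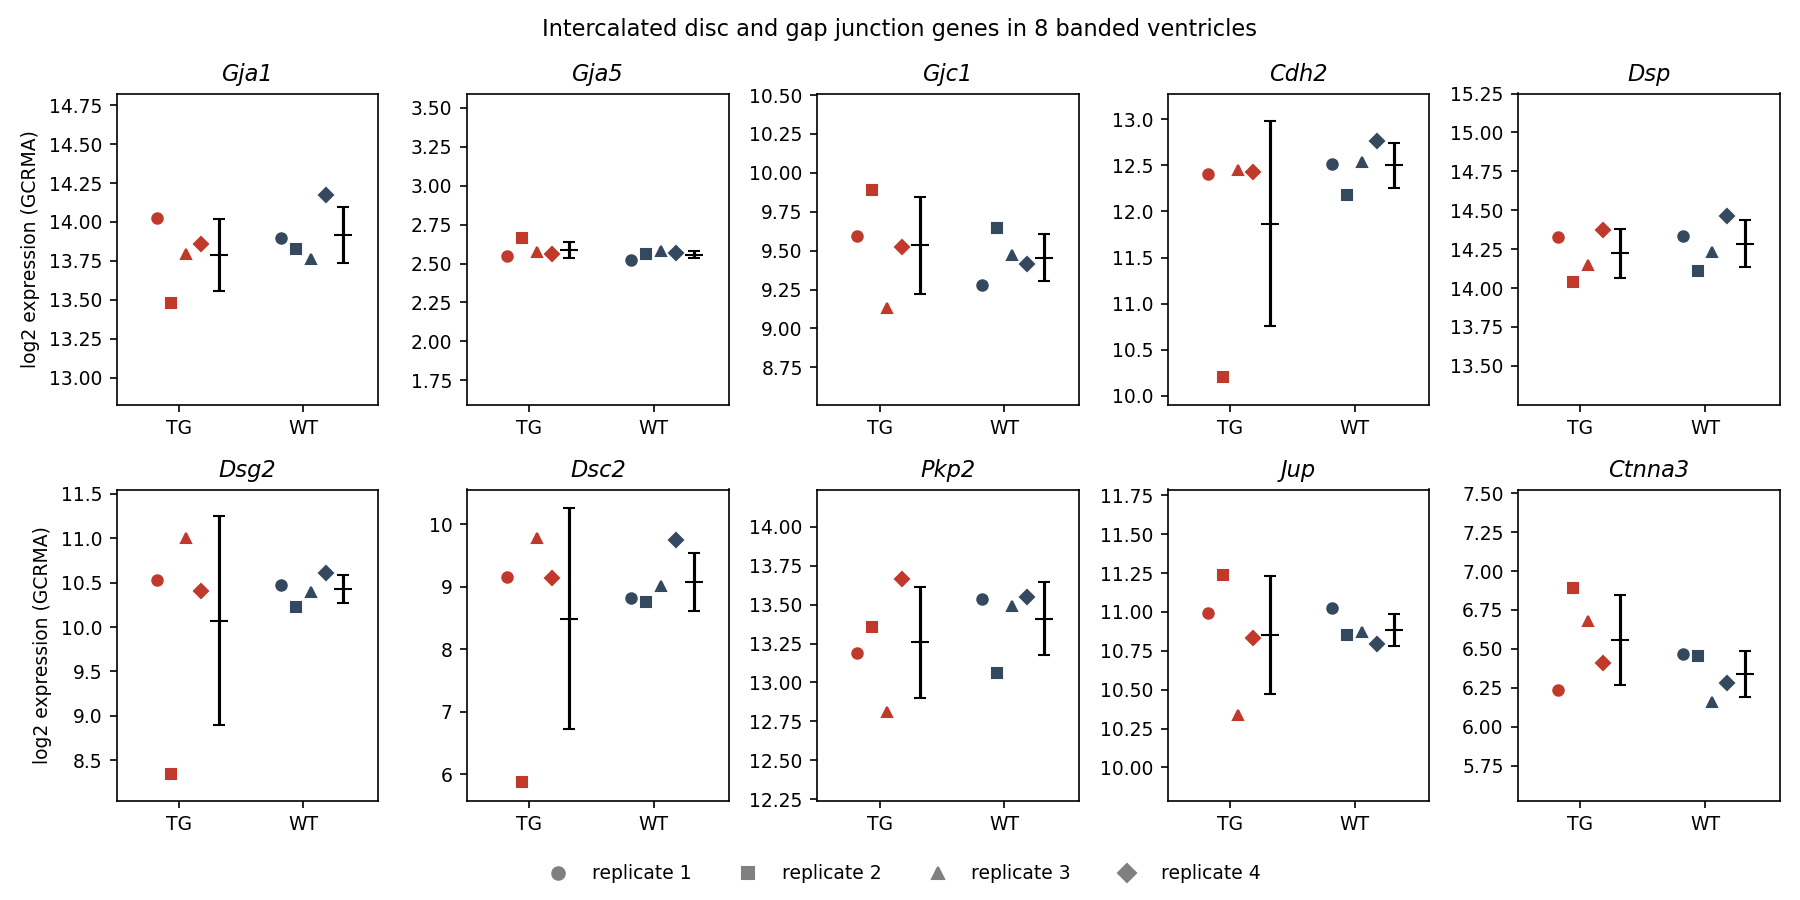
Log2 expression of the 10 genes in each of the 4 TG arrays (left of each panel) and 4 WT arrays (right), with the marker shape giving the replicate and the bar beside each group its mean and SD. Each vertical axis has its own range; TG replicate 2 lies at 10.20 for Cdh2, 8.35 for Dsg2 and 5.88 for Dsc2, below all other arrays, while Gja5 lies between 2.52 and 2.66 throughout.

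Gja1 encodes connexin 43, the main gap junction protein of working ventricular muscle. Its log2 values were 14.03, 13.48, 13.80 and 13.86 in TG replicates 1 to 4, against 13.90, 13.82, 13.76 and 14.17 in WT replicates 1 to 4. TG replicate 2 was the lowest array and WT replicate 4 the highest, and the other arrays of both groups lay among each other. The group means were 13.79 ± 0.23 in TG arrays and 13.92 ± 0.18 in WT arrays (SD, n = 4 each), a difference of -0.13 (limma, 95% confidence interval -0.54 to 0.28; adjusted p = 0.823; exact permutation p = 0.429). On the linear scale this interval runs from 0.689-fold to 1.22-fold of WT. Without TG replicate 2 the difference was -0.02, with an interval from -0.34 to 0.29.

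Of the 6 probe sets of Gja1, 5 were above the filter and 4 of these had a lower TG mean. The kept one and 3 others, all with means of 12.72 or more, lay between -0.68 and -0.44 from the WT mean in TG replicate 2. The remaining one, 1415801_at, behaved differently. It gave 10.59, 9.86, 9.90 and 8.88 in TG replicates 1 to 4, against 10.25, 10.33, 8.25 and 9.18 in WT replicates 1 to 4. Its SD was 0.70 in TG and 0.98 in WT arrays, its difference was 0.31 (exact permutation p = 0.657), and its order of arrays was not that of the kept probe set.

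By the root mean square distance between log2 values centred on each gene's mean over the 8 arrays, the genes closest to Gja1 among 8205 with an SD of at least 0.2 were Myh11, the smooth muscle myosin heavy chain, at 0.08, and H3f3a, a histone gene, and Uxs1, a sugar nucleotide decarboxylase, at 0.09 each. The median distance of all candidates was 0.49. Each of the 3, like Gja1, was lowest in TG replicate 2, with Myh11 at 8.18 there and at 8.58 or more in the other arrays.

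Gjc1 encodes connexin 45, a connexin of the conduction system and the developing heart. It gave 9.59, 9.89, 9.13 and 9.52 in TG replicates 1 to 4, against 9.28, 9.65, 9.47 and 9.42 in WT replicates 1 to 4. The TG arrays held both the highest and the lowest value, so the WT range lay inside the TG range. The means were 9.53 ± 0.31 in TG and 9.45 ± 0.15 in WT arrays (SD, n = 4 each), a difference of 0.08 (limma, 95% confidence interval -0.37 to 0.53; adjusted p = 0.886; exact permutation p = 0.686). Its sign turned to -0.04 without TG replicate 2, and it was 0.21 without TG replicate 3. A second probe set gave 8.69 in TG replicate 2 and values from 7.20 to 8.02 elsewhere.

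Gja5 encodes connexin 40, which joins atrial muscle cells, the ventricular conduction system and arterial endothelium. Its only probe set lay between 2.55 and 2.66 in TG arrays and between 2.52 and 2.58 in WT arrays, far under the level of 5 and at the low floor to which GCRMA draws probe sets without signal. It was therefore not measurable with this probe set, and its difference of 0.03 is not read. Of the atrial markers, 4 of 5 were measured, with a mean log2 level between 11.31 and 11.95 in TG arrays and between 10.94 and 11.65 in WT arrays, Bmp10 being under the filter. Of these, 3 had a higher TG mean, Myl7 by 0.71, Myl4 by 0.67 and Sln by 0.64, and Nppa differed by -0.44. Their median difference was 0.65, and 0.52 without TG replicate 2. With limma 0 passed after adjustment, and 1, Myl7, had an unadjusted p under 0.05. All 5 arterial endothelial markers were measured, at mean levels between 7.29 and 8.05 in TG and between 7.15 and 7.31 in WT arrays. Of these, 4 had a higher and 1 a lower TG mean, where 43% of all genes were lower. The median difference of these arterial markers was 0.50, and 0.07 without TG replicate 2. With limma 0 of them passed after adjustment, and 1, Hey1, had an unadjusted p under 0.05, against 1.6% of all genes. Of the conduction system markers, Tbx3 and Cntn2 were on the array with a single symbol, and both were under the filter.

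Of the other connexins and pannexins, 14 of 20 had a single-symbol probe set and 3 were measured. Gja4, connexin 37 of arterial endothelium, gave 7.72, 9.11, 6.85 and 7.60 in TG replicates 1 to 4, against 7.14, 7.30, 7.67 and 7.20 in WT replicates 1 to 4. It was highest in TG replicate 2 and lowest in TG replicate 3, and its difference was 0.50 with all arrays and 0.07 without TG replicate 2. Gja3, connexin 46, differed by -0.05, and Panx1, a pannexin channel, by -0.09 with values from 3.64 to 7.13 within the TG arrays alone. The list had 1 gene higher and 2 lower, where 43% of all genes were lower, with a median difference of -0.05. At an unadjusted limma p under 0.05 it had 0, against 1.6% of all genes.

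Of the members tested, the cadherins Cdh2, Dsg2 and Dsc2 had the widest spread between TG arrays. Cdh2, N-cadherin, the adhesion molecule of the adherens junction, gave 12.40, 10.20, 12.44 and 12.42 in TG replicates 1 to 4, against 12.51, 12.18, 12.54 and 12.76 in WT replicates 1 to 4. TG replicate 2 was far below all 7 other arrays, while TG replicates 1, 3 and 4 agreed within 0.05 of each other and lay inside the WT range. The means were 11.87 ± 1.11 in TG and 12.50 ± 0.24 in WT arrays (SD, n = 4 each), a difference of -0.63 (limma, 95% confidence interval -1.75 to 0.49; adjusted p = 0.813; exact permutation p = 0.314). Without TG replicate 2 it was -0.07, with an interval from -0.42 to 0.27. The second Cdh2 probe set placed TG replicate 2 at 10.57, against 10.90 to 11.22 in the other TG arrays and 10.94 to 11.29 in WT arrays. There the array lay at -0.54 from the WT mean, where the kept probe set put it at -2.29.

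Dsg2 and Dsc2 encode desmoglein 2 and desmocollin 2, the desmosomal cadherins of heart muscle. Dsg2 gave 10.53, 8.35, 11.00 and 10.40 in TG replicates 1 to 4, against 10.48, 10.22, 10.40 and 10.61 in WT replicates 1 to 4. Dsc2 gave 9.16, 5.88, 9.77 and 9.14 in TG replicates 1 to 4, against 8.81, 8.75, 9.01 and 9.75 in WT replicates 1 to 4. For both genes TG replicate 2 was the lowest and TG replicate 3 the highest of all 8 arrays. In TG replicate 2 the levels were 23.7% of the WT mean for Dsg2, 10.9% for Dsc2 and 20.4% for Cdh2, whereas in TG replicate 3 they were 149% for Dsg2, 162% for Dsc2 and 96.4% for Cdh2.

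The difference was -0.36 for Dsg2 (limma, 95% confidence interval -1.53 to 0.82; adjusted p = 0.823; exact permutation p = 0.857). It was -0.59 for Dsc2 (limma, 95% confidence interval -2.35 to 1.17; adjusted p = 0.815; exact permutation p = 0.857). Without TG replicate 2 both signs turned, to 0.22 for Dsg2 and 0.28 for Dsc2, and without TG replicates 2 and 3 together the differences were 0.04 and 0.07. The pattern ran through every probe set of these genes above the filter: 3 of Dsg2 lay between -3.16 and -2.08 from the WT mean in TG replicate 2 and between 0.51 and 1.29 in TG replicate 3. The 2 of Dsc2 lay at -1.46 and -3.20 in TG replicate 2 and at 0.82 and 0.69 in TG replicate 3.

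**Figure D2:**
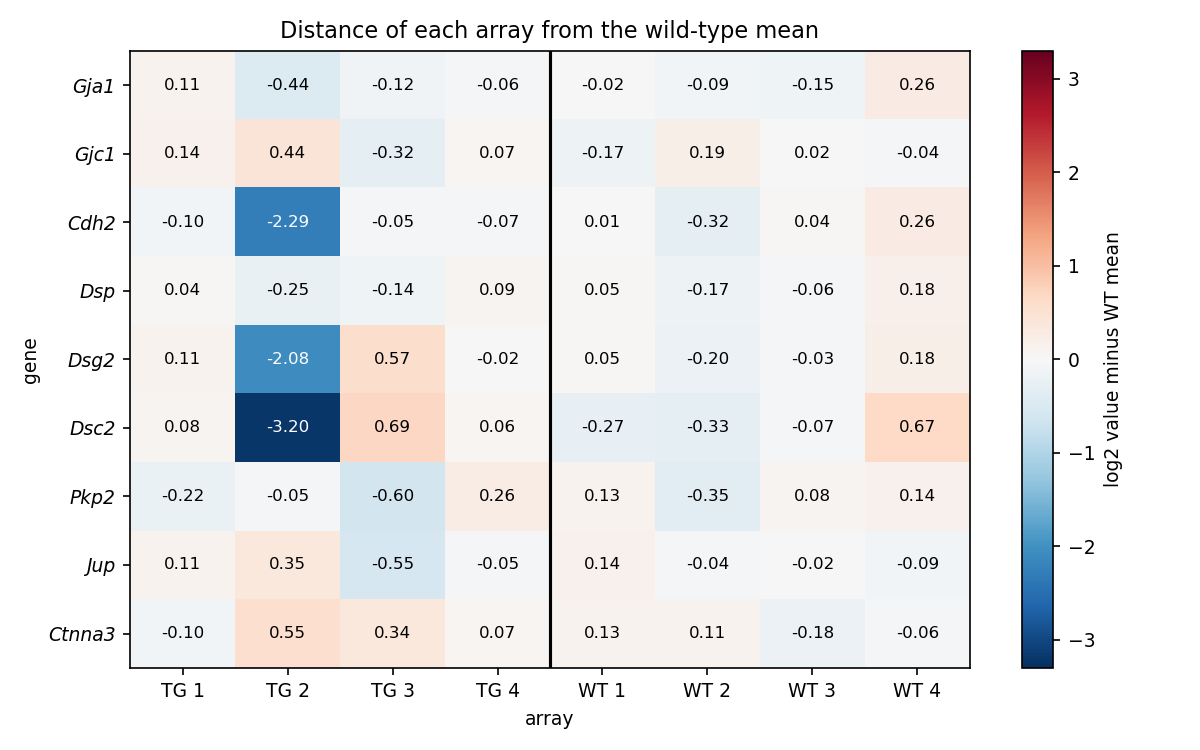
Log2 value minus the WT mean for the 9 genes tested (rows) in the 4 TG arrays and the 4 WT arrays (columns), coloured from blue (below) to red (above). Cdh2, Dsg2 and Dsc2 lie at -2.29, -2.08 and -3.20 in TG replicate 2, and every other cell lies between -0.60 and 0.69.

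Against the median of the other 7 arrays, 3 of 9 members lay over 2-fold lower in TG replicate 2 (Cdh2, Dsg2 and Dsc2), where 20.4% of all genes did, and 0 of 9 lay over 2-fold higher, where 16.8% did. In TG replicate 3, 0 of 9 lay over 2-fold lower or higher, against 6.95% and 2.3% of all genes. Markers of other cells also moved in these arrays. In TG replicate 2 the medians of the endothelial, smooth muscle and macrophage lists lay at 0.78, 0.91 and 0.83 from the WT mean and that of the cardiomyocyte list at -0.15, with Pln, phospholamban, at 13.22 against 14.61 or more in every other array. These medians hide members that went both ways in TG replicate 2: Rgs5 lay at -1.61 and Pdgfrb at 1.28 in the smooth muscle and pericyte list, Mrc1 at -1.97 and Fcgr1 at 2.46 in the macrophage list, and Kdr at -0.33 and Pecam1 at 1.23 in the endothelial list. In TG replicate 3 the fibroblast and macrophage medians lay at -0.81 and -1.10 and the cardiomyocyte median at 0.06. The mean log2 level of the 6 endothelial markers was 9.20 to 9.74 in TG and 8.93 to 9.56 in WT arrays, that of the 6 fibroblast markers 10.69 to 12.37 and 12.05 to 12.46, that of the 6 smooth muscle and pericyte markers 10.25 to 11.36 and 10.84 to 11.11, and that of the 6 macrophage markers 8.14 to 10.07 and 8.67 to 9.98. All members of these 4 lists were measured. Their part in the cadherin values was not tested, and in bulk ventricle fewer cells of a type and less RNA per cell cannot be told apart. Of the remaining markers 1 of 4 epicardial (Wt1), 1 of 4 erythroid (Alas2) and 1 of 4 skeletal muscle genes (Ckm) was measured. Myh4, Tnnt3 and Actn3 of the skeletal muscle list were under the filter, and Ckm alone is not read as a sign of skeletal muscle.

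The other desmosomal proteins are the plaque proteins that link the cadherins to desmin filaments. Dsp, desmoplakin, had the smallest SD between TG arrays of the 9 members tested. It gave 14.33, 14.04, 14.15 and 14.38 in TG replicates 1 to 4, against 14.34, 14.11, 14.23 and 14.46 in WT replicates 1 to 4. The groups covered almost the same range, with means of 14.22 ± 0.16 in TG and 14.29 ± 0.15 in WT arrays (SD, n = 4 each) and a difference of -0.06 (limma, 95% confidence interval -0.43 to 0.30; adjusted p = 0.889; exact permutation p = 0.6). The quantile normalization within GCRMA comes before probes are summarized. The deposited values still differed in their median, from 3.33 in WT replicate 1 to 3.43 in TG replicate 2. The part of that normalization in this small spread was not tested. Other bright probe sets spread little or widely, such as Myl2 with an SD of 0.06 and Pln with 0.82 in TG arrays. A dimmer Dsp probe set had SDs of 0.28 in TG and 0.49 in WT arrays and a difference of 0.13.

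Pkp2, plakophilin 2, a plaque protein that also supports gap junctions and sodium channels at the disc, gave 13.19, 13.36, 12.81 and 13.67 in TG replicates 1 to 4, against 13.54, 13.06, 13.49 and 13.55 in WT replicates 1 to 4. It was lowest in TG replicate 3, not in TG replicate 2. The difference was -0.15 (limma, 95% confidence interval -0.66 to 0.35; adjusted p = 0.823; exact permutation p = 0.457), and it was -0.01 without TG replicate 3. All 4 Pkp2 probe sets had a lower TG mean. The dimmest but one, 1460511_at, gave 3.95 in TG replicate 2 and 5.98 or more in the other arrays, whereas the kept probe set lay at -0.05 from the WT mean in that array.

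Jup, plakoglobin, which serves desmosomes and adherens junctions alike, gave 11.00, 11.24, 10.34 and 10.83 in TG replicates 1 to 4, against 11.03, 10.85, 10.87 and 10.79 in WT replicates 1 to 4. Its WT arrays agreed closely, with an SD of 0.10 against 0.38 in TG arrays, and TG replicate 3 was the lowest of all. The difference was -0.03 (limma, 95% confidence interval -0.51 to 0.45; adjusted p = 0.957; exact permutation p = 0.857). Leaving out TG replicate 2 moved it to -0.16 and leaving out TG replicate 3 turned it to 0.14.

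Ctnna3 encodes alpha-T-catenin, the alpha-catenin of the mixed junctions of heart muscle. It gave 6.24, 6.89, 6.68 and 6.41 in TG replicates 1 to 4, against 6.47, 6.45, 6.16 and 6.28 in WT replicates 1 to 4. The 2 highest values were TG replicates 2 and 3, and TG replicate 1 lay below 3 WT arrays. The means were 6.56 ± 0.29 in TG and 6.34 ± 0.15 in WT arrays (SD, n = 4 each), a difference of 0.22 (limma, 95% confidence interval -0.21 to 0.65; adjusted p = 0.813; exact permutation p = 0.286). It was 0.10 without TG replicate 2 and -0.01 without TG replicates 2 and 3 together. The probe set lay close above the level of 5 and its second probe set lay under 3 in all arrays.

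**Figure D3:**
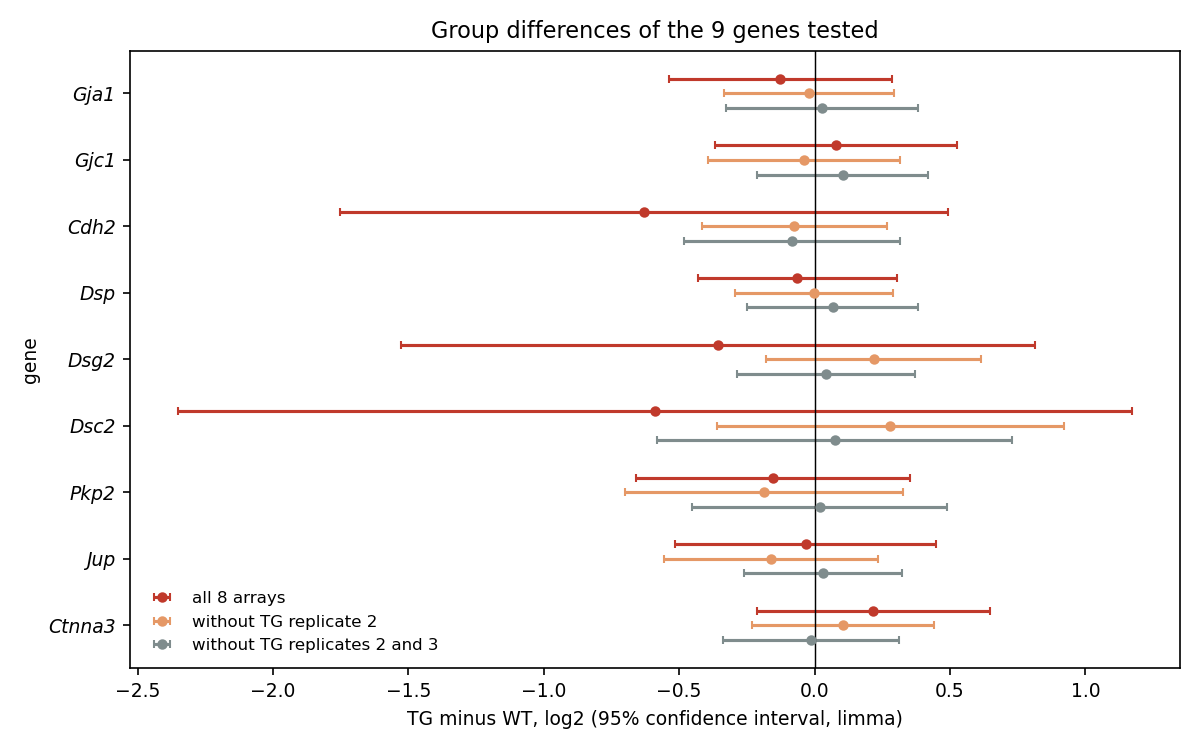
TG minus WT difference on the log2 scale with its 95% confidence interval from limma for the 9 genes tested, with all 8 arrays, without TG replicate 2 and without TG replicates 2 and 3. Every interval spans 0, and that of Dsc2 runs from -2.35 to 1.17 with all arrays and from -0.58 to 0.73 without TG replicates 2 and 3.

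The members did not move as one unit within the TG group. In TG replicate 2 Cdh2, Dsg2, Dsc2, Gja1, Dsp and Pkp2 lay below the WT mean and Gjc1, Jup and Ctnna3 above it. In TG replicate 3 Dsg2, Dsc2 and Ctnna3 lay above it and the other 6 below, with Pkp2 at -0.60 and Jup at -0.55. In TG replicates 1 and 4 every member lay within 0.26 of the WT mean. The SD between TG arrays exceeded that between WT arrays in 9 of 9 members, where it did so in 89.1% of all genes, and the ratio of the SDs ran from 1.05 for Dsp to 7.36 for Dsg2. Without TG replicate 2 it did so in 5 of 9 members and in 63.6% of all genes. The half-width of the 95% confidence interval, which refers to a single gene before adjustment, ran from 0.37 for Dsp to 1.76 for Dsc2. Its median over the members was 0.48 against 0.61 over all genes. To pass after adjustment over 9605 genes more was needed. Even the smallest unadjusted limma p of all genes, 0.00018, gave an adjusted p of 0.813.

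Other probe sets of the same genes did not give a group difference either. The 10 genes had 29 probe sets, of which 23 were above the filter, 5 with a higher and 18 with a lower TG mean. The share of lower means was not computed over all probe sets. Several signs turned without TG replicate 2: those of Dsg2 and Dsc2 became higher and the kept one of Gjc1 lower. Probe sets of a gene share its transcripts and are not replicates. Exact two-sided permutation p of the 23 lay between 0.286 and 0.971, where the smallest p that 4 against 4 arrays allow is 0.0286.

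**Figure D4:**
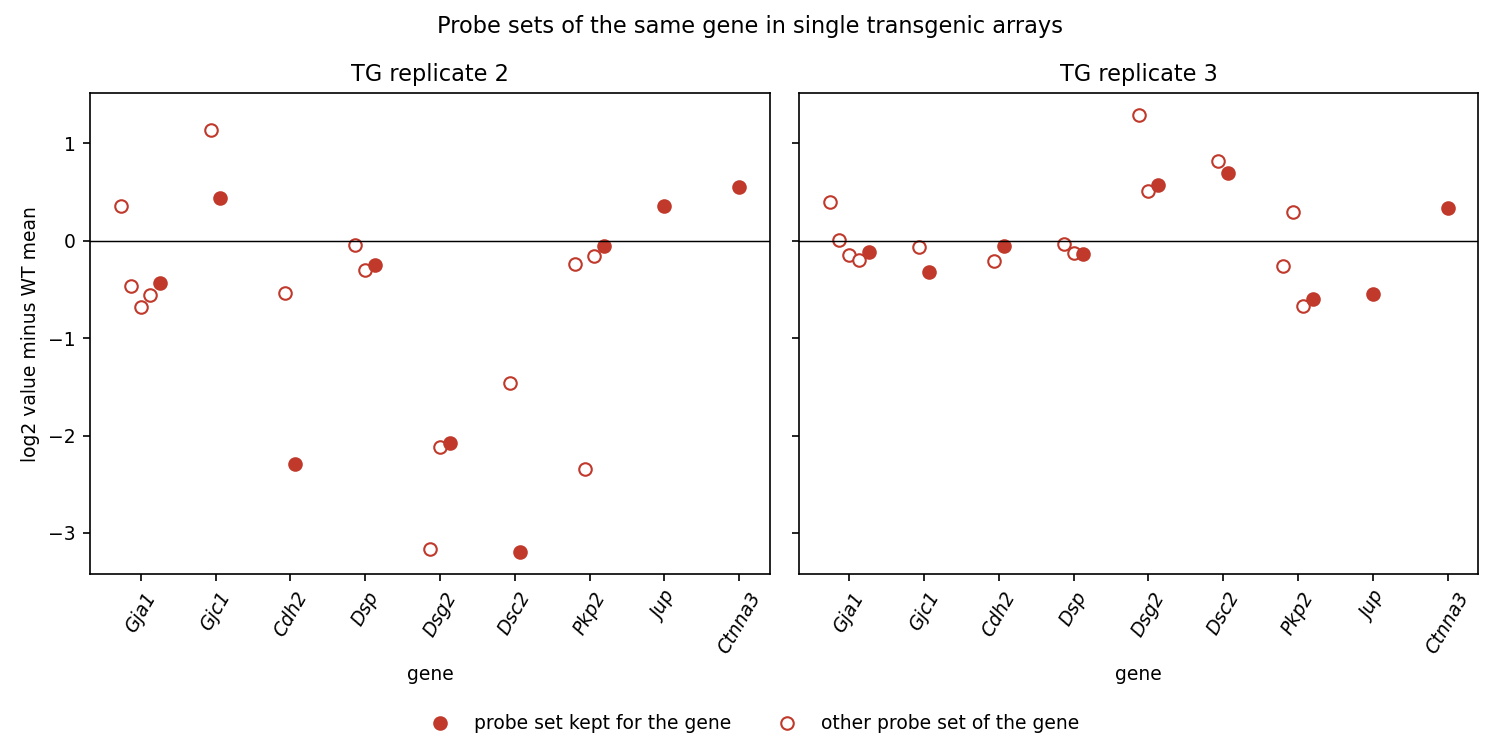
Log2 value minus the WT mean in TG replicate 2 (left panel) and TG replicate 3 (right panel) for each of the 23 probe sets above the filter, filled where the probe set was kept for its gene and open otherwise. Probe sets of Dsg2 and Dsc2 lie together below 0 in TG replicate 2 and above 0 in TG replicate 3, while those of Cdh2 lie at -2.29 and -0.54 and those of Pkp2 between -2.35 and -0.05 in TG replicate 2.

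Other genes of the disc, of the same junction families in other cells and of connexin traffic, grouped into 5 lists of 73 genes, did not pass either. Of these, 40 genes were measured, 16 with a higher and 24 with a lower TG mean, where 43% of all genes were lower. With limma, 0 passed after adjustment over all genes (smallest adjusted p = 0.813). An unadjusted p under 0.05 was found for 0, against 1.6% of all genes. Their median difference was -0.08, against 0.06 over all genes. The values of 1 of the 40 genes did not overlap between the groups, where 2.48% of all genes did not. That gene was Cnst, consortin, a receptor for connexin cargo in the secretory pathway, at 9.49, 9.44, 9.60 and 9.37 in TG replicates 1 to 4, against 9.34, 9.15, 9.27 and 9.30 in WT replicates 1 to 4 (difference 0.21, SE 0.142; limma adjusted p = 0.813).

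Among adherens junction and other disc genes, 23 of 24 were measured, 9 higher and 14 lower (43% of all genes were lower), with a median difference of -0.11. This list also held Cdh5, which is among the endothelial markers too. Vcl, vinculin, and Ctnnb1, beta-catenin, each differed by -0.11, and Des, desmin, the intermediate filament to which desmosomes attach, by -0.32. Des was 12.94 in TG replicate 3 against at least 13.92 in the other 7 arrays. Tjp1, the scaffold ZO-1 that binds connexin 43, gave 11.02, 8.78, 10.93 and 11.05 in TG replicates 1 to 4, against 11.07, 10.86, 10.75 and 10.95 in WT replicates 1 to 4. Like the cadherins it was low in TG replicate 2 alone, and its difference of -0.46 was 0.09 without that array. Bves, a Popeye domain protein of the muscle cell surface, differed by 0.33 (0.27 without TG replicate 2), Ank2, ankyrin-B, by -0.81 (0.05 without TG replicate 2) and Popdc2, another Popeye domain protein, by 0.21 (0.07 without TG replicate 2). In TG replicate 2, 6 of the 23 genes lay over 2-fold lower than in the median of the other arrays, where 20.4% of all genes did. They were Tjp1, Ank2, Ank3, Cxadr, Lmo7 and Tmem65. Over 2-fold higher lay 1, Tmem43, where 16.8% of all genes did.

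Of the other desmosomal genes 2 of 13 were measured, Pkp4, plakophilin 4, at -0.20 and Perp, a desmosomal membrane protein, at -0.24. Most of the others, such as Dsc1 and Pkp1, belong to desmosomes of epithelia. Of the genes of connexin traffic and turnover 9 of 10 were measured, 4 higher and 5 lower (43% of all genes were lower), with a median of -0.06. Cav3, caveolin-3 of muscle, differed by 0.49 and Mapre1, the microtubule plus-end protein EB1 on which connexin 43 travels to the disc, by -0.35, and these were 0.25 and -0.20 without TG replicate 2. Of the ion channel proteins of the disc 3 of 6 were measured. Kcnq1, a potassium channel, differed by 0.17 (0.07 without TG replicate 2), Kcna5, another potassium channel, by 0.23 with SDs of 1.15 in TG and 0.87 in WT arrays (-0.20 without TG replicate 2), and Fgf13, a partner of the sodium channel, by -0.08 (0.12 without that array).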

How the data were processed

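The authors deposited log2 expression values for 45101 probe sets, made with GCRMA per the submitters' processing notes (version not given in the sources used here), which corrects background, normalizes by quantiles and summarizes probes. Values ran from 0.84 to 16.11. Precision is limited by the number of arrays, which have no read depth. The platform annotation gave 1 symbol for 34958 probe sets, and 932 with several and 9211 with none were left out. Symbols were checked through Entrez identifiers (34754 matched, 0 changed).

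Groups came from the sample titles. TG minus WT was fitted over all 8 arrays with lmFit and eBayes of limma 3.58.1 under R 4.3.3 (no trend, no block), adjusted by Benjamini-Hochberg over 9605 genes, and single members also had an exact two-sided permutation test of their means. The steps were tested on simulated data. Members and lists were chosen with earlier results of these data known, so lists are described by counts and medians without a test. Beside members and Hey2, the text names up to 3 genes with the smallest p of each list with at least 3 measured genes, 4 fixed disc genes (Vcl, Ctnnb1, Tjp1, Des) and the 3 genes nearest to Gja1. Neighbours of Gja5 are not given, since it was under the filter. Other genes were named after their values were seen. Alternatives changed the filter, scaling, model, probe set rule and test, and left out arrays.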

Additional observations from a re-analysis of the deposited data

Results flagged for a closer look

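Within each group of 4 arrays, the members, Hey2 and the list genes named by rule were searched for 1 array set far apart from the other 3 by Dixon's criterion. Chance flags about 1 in 20 groups where values are normal and groups independent, and 6 of 54 were found. These groups share the same 8 arrays, so that rate cannot judge the count. In TG replicate 2, 37.2% of all genes tested lay over 2-fold from their median in the other arrays. In TG replicate 2 low values were found for Cdh2 at 10.20, Dsc2 at 5.88 and Tjp1 at 8.78, and a high one for Cav3 at 10.13. In WT arrays, Pkp2 was low in replicate 2 at 13.06 and Mapre1 was high in replicate 3 at 11.73. Dsg2 in TG replicate 2, at 8.35, missed the criterion because TG replicate 3 widened the range at the upper end.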

How the results depend on the processing

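No member passed at an adjusted p of 0.05 under any of the 20 alternatives, and none had an unadjusted p under 0.05 (smallest adjusted p of a member 0.445, with array weights). Over all genes 0 passed under 19 alternatives. With array weights 1 did (Inmt, adjusted p = 0.0373, named after its value was seen), and 1527 genes had an unadjusted p under 0.05 against 154, TG replicate 2 having a weight of 0.0519. Elsewhere that number ran from 34 to 541, counting arrays left out. The members' median ran from -0.16 to 0.00 over the other alternatives that kept all 8 arrays, from -0.16 to -0.02 with 1 array left out, and was 0.031 without TG replicates 2 and 3. Signs turned with array weights (Gja1 0.030, Dsp 0.0023, Dsg2 0.057, Jup 0.092, Ctnna3 -0.019), with probe sets averaged per gene (Dsp 0.0041) and without TG replicates 2 and 3 (Gja1 0.027, Dsp 0.067, Dsg2 0.042, Dsc2 0.074, Pkp2 0.019, Jup 0.031, Ctnna3 -0.013). With 1 array left out, Gjc1 ran from -0.039 to 0.21, Dsg2 from -0.67 to 0.22, Dsc2 from -1.02 to 0.28 and Jup from -0.16 to 0.14. Quantile normalization and median centring turned no sign. Groups share replicate numbers. Between same-numbered arrays, each taken from its group mean, r across genes was 0.30, -0.01, -0.33 and 0.20 for numbers 1 to 4. Arrays of different number were not compared in this way, so these values cannot decide whether same-numbered arrays deviate together. With a replicate block 0 members passed, with a median of -0.13.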
